A study of Homo sapiens with 12 samples.

Results

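Glucuronidation, the conjugation of drugs, bilirubin, steroids and bile acids with glucuronic acid, was followed through the transcripts of 5 genes: the conjugating enzymes UGT1A1, UGT2B4 and UGT2B7, and the enzymes UGDH and UGP2, which make the sugar donor. The 5 were taken by symbol from the deposited expression table, where each matched 1 locus, giving 5 of 15822 loci. RNA sequencing libraries came from HepaRG, a human hepatoma line whose cultures can hold hepatocyte-like and biliary-like cells. Each of 6 groups held 2 libraries: knockout (KO) cells for the human constitutive androstane receptor (CAR, gene NR1I3) given phenobarbital (PB), CITCO or the solvent DMSO, and wild type (WT) cells given PB, CITCO or DMSO. PB is a barbiturate known to activate CAR indirectly, and CITCO is a synthetic CAR agonist. The sources used here give no dose, no exposure time, no account of how the receptor gene was disrupted and no word on whether the KO line was 1 clone. Nothing in the labels says that duplicates were separate cultures, so the p-values reflect library-to-library spread alone, and that spread may be technical.

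UDP-glucuronosyltransferases (UGTs) sit in the membrane of the endoplasmic reticulum and move glucuronic acid from UDP-glucuronate onto lipophilic substrates, and the products leave the hepatocyte in bile or blood. UGP2 joins glucose 1-phosphate to UTP to give UDP-glucose, which also feeds glycogen synthesis, and UGDH oxidises UDP-glucose to UDP-glucuronate. UGT1A1 is the enzyme that conjugates bilirubin, and its gene is a textbook target of CAR and of the pregnane X receptor. UGT2B4 conjugates bile acids and catechol estrogens, and UGT2B7 conjugates morphine, several other drugs and steroids.

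In GENCODE 29 annotation of GRCh38, UGT1A1 lies on the plus strand at chr2:233760248-233773299 and UGP2 on the plus strand at chr2:63840940-63891562. UGT2B4 lies on the minus strand at chr4:69480165-69526014, UGT2B7 on the plus strand at chr4:69051363-69112987, and UGDH on the minus strand at chr4:39498755-39528311. Promoter sequence was available in the RefSeq table for 4 of 5 members, and the 250 bases before the start site are printed here to show their base composition and motifs (RefSeq, GRCh38.p14, 5′ to 3′). They are UGT1A1 at chr2:233760020-233760269 (plus strand), UGT2B7 at chr4:69096224-69096473 (plus strand), UGDH at chr4:39527440-39527689 (minus strand) and the first of 2 UGP2 windows at chr2:63840719-63840968 (plus strand). For UGT2B7 and UGDH the GENCODE span begins upstream of the RefSeq start site, with longer transcripts, so their windows lie inside the spans given. Capitals mark matches, on either strand, to the motifs named after the sequences.
UGT1A1: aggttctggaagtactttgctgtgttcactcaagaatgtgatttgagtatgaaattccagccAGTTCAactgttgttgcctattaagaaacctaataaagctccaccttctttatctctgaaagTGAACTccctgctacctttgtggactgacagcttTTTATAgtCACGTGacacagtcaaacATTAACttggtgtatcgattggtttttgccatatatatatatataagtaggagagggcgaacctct
UGT2B7: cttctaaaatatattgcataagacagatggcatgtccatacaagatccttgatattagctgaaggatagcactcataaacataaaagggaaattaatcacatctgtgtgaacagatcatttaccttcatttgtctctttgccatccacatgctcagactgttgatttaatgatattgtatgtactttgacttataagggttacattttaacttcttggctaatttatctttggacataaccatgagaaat
UGDH: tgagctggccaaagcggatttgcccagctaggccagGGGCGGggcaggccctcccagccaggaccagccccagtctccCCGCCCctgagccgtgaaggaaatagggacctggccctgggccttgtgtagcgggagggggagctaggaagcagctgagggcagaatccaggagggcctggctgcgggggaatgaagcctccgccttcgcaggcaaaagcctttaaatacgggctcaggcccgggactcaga
UGP2: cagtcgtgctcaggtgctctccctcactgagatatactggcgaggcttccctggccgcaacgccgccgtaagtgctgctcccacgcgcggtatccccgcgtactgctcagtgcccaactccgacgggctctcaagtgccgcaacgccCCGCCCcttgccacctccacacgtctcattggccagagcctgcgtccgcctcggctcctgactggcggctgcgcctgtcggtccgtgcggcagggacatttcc

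The window was 38.8% G and C for UGT1A1 and 32.8% for UGT2B7, against 66.0% for UGDH and 67.2% for UGP2. The UGT1A1 window held TATAAA, found in 10.7% of 35116 promoters in the table, the HNF1 motif GTTAAT (6.23%) and the E box CACGTG (6.35%). It also held 2 copies of the nuclear receptor motif AGTTCA, of which any copy was found in 8.80% of promoters. The SP1 box GGGCGG, present in 42.6% of promoters, occurred at 2 places in UGDH and at 1 in the UGP2 window printed. The second UGP2 window, not printed, held it at 2 places. No match to these motifs, or to AGGTCA (12.1%), the antioxidant response core TGACNNNGC (10.9%) or the AhR core TNGCGTG (4.52%), was found in the UGT2B7 window. These letters were searched on both strands, the UGT1A1 matches did not overlap, and a match is a description of the sequence alone.

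All values below are deposited CPM, read counts divided by a library size that the authors had adjusted, so that library totals were 0.90 to 0.935 times 1e6 in KO and 1.07 to 1.11 times 1e6 in WT libraries. The recovered reads per library numbered 49.3e6 to 66.5e6. NR1I3 itself had 16.2 and 15.6 CPM in KO cells with PB, 9.63 and 10.7 in KO with CITCO, 11.01 and 10.55 in KO with DMSO, 14.8 and 15.5 in WT with PB, 9.70 and 9.33 in WT with CITCO, and 11.47 and 11.97 in WT with DMSO. Because the place of the edit is not given, this level of its transcript does not check the genotype. CYP2B6, the usual reporter of CAR activity, rose by 0.78 on the log2 scale with CITCO in KO cells, against 3.55 in WT cells, and the 2 responses differed by -2.78 (limma, adjusted p = 3.52e-13). With PB, mean CYP2B6 was 228 CPM in KO, against 9.59 with DMSO, and 445 in WT, against 36.1 with DMSO. KO libraries had lower summed hepatocyte markers (58033 to 61055 CPM over 7 of 8 genes, against 140309 to 157914 in WT), lower summed biliary markers (104 to 121 over 4 of 8 genes, against 377 to 467) and higher summed mesenchymal markers (225 to 248 over 5 of 8, against 113 to 121). These sums rest on abundant genes: KRT19 made up most of the biliary sum (83.9 CPM in KO and 407 in WT with DMSO) and ALB most of the hepatocyte sum. With the deposited scaling, 2 of 4 biliary genes were lower in KO with DMSO (KRT19 and SOX9) and 2 were higher (KRT7 and SPP1). Among all tested loci, 29.4% were lower and 28.3% were higher in that comparison. Of the 7 hepatocyte genes 5 were lower and FGB was higher, and of the 5 mesenchymal genes 3 were higher and COL3A1 was lower, which no longer passed with totals scaled alike. The other genes of these lists had no row and were not analysed here.

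**Figure D1:**
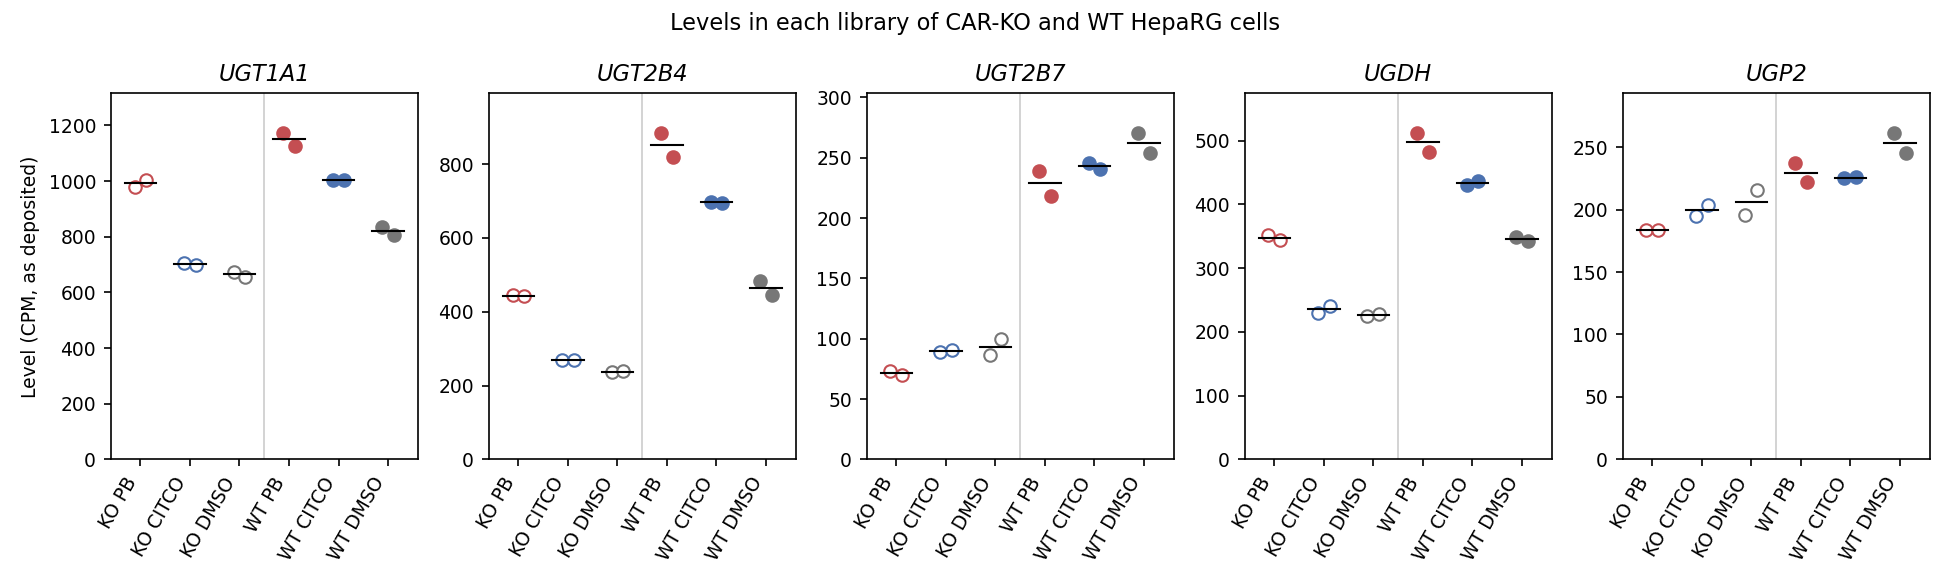
Deposited CPM of the 5 genes in the 12 libraries, with the 6 groups along the horizontal axis, 1 point per library and a bar at each group mean. UGT1A1, UGT2B4 and UGDH are highest in WT cells with PB, and UGT2B7 and UGP2 are highest in WT cells with DMSO.

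UGT1A1 rose with PB in both genotypes and with CITCO in WT cells. It had 979 and 1005 CPM in KO cells with PB, 707 and 698 in KO with CITCO, and 673 and 657 in KO with DMSO. WT cells had 1174 and 1128 CPM with PB, 1002 and 1005 with CITCO, and 834 and 807 with DMSO. In WT cells the 3 treatments did not overlap, whereas in KO cells the PB libraries stood far above the rest and the CITCO libraries lay just above the DMSO libraries. PB raised UGT1A1 by 0.58 on the log2 scale in KO cells (95% interval 0.51 to 0.65, limma adjusted p = 9.78e-10) and by 0.49 in WT cells (0.42 to 0.56, adjusted p = 1.26e-08). CITCO raised it by 0.29 in WT cells (0.22 to 0.36, adjusted p = 3.69e-05). In KO cells the CITCO difference was 0.08 (0.01 to 0.15, adjusted p = 0.378) and did not pass. Reads of UGT1A1 need care, because 61.4% of the 50-base windows of its transcript also occur in other UGT1A transcripts, which share its last exons. None of the other 8 UGT1A genes had a row, so this locus may hold their reads and they cannot be told apart.

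UGT2B4 showed the largest drug responses of the 5 genes. It had 445 and 442 CPM in KO cells with PB, 269 and 269 in KO with CITCO, and 236 and 240.0 in KO with DMSO. WT cells had 885 and 820.3 CPM with PB, 698 and 695 with CITCO, and 483 and 444 with DMSO. KO libraries with PB overlapped the WT libraries with DMSO, and no KO library reached the WT libraries with either drug. PB raised UGT2B4 by 0.90 in KO (0.81 to 0.98, 1.86-fold, adjusted p = 4.19e-11) and by 0.88 in WT cells (0.79 to 0.97, 1.84-fold, adjusted p = 7.53e-11). CITCO raised it by 0.59 in WT cells (0.50 to 0.68, adjusted p = 7.07e-08). The CITCO difference in KO cells was 0.18 (0.09 to 0.26, adjusted p = 0.0623) and did not pass. This value passed in 6 of 20 alternative settings. They include library totals scaled alike (adjusted p = 0.0331) and a fit of the compared libraries alone (adjusted p = 0.0214). The authors' deposited table gave it an FDR of 0.155, so the KO call depends on the setting.

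UGT2B7 did not follow UGT1A1 and UGT2B4. It had 73.1 and 70.2 CPM in KO cells with PB, 88.8 and 90.3 in KO with CITCO, and 86.4 and 100.01 in KO with DMSO. WT cells had 239 and 218 CPM with PB, 245 and 241 with CITCO, and 271 and 254 with DMSO. Every KO library lay below every WT library, and within each genotype the PB libraries were the lowest. UGT2B7 fell by 0.37 with PB in KO cells (interval -0.50 to -0.25, adjusted p = 0.000437). In WT cells the PB difference of -0.20 did not pass (interval -0.32 to -0.07, adjusted p = 0.0588). It passed in 6 of 22 alternative settings, among them library totals scaled alike (adjusted p = 0.0423). The authors' deposited table gave it an FDR of 0.135. With CITCO the difference was -0.05 for KO (adjusted p = 0.828) and -0.11 for WT (adjusted p = 0.377). Of the 50-base windows of UGT2B7, 5.99% are shared with UGT2B10, and 1.85% of UGT2B4 windows occur in other UGT transcripts.

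UGDH, which makes UDP-glucuronate, rose with PB in both genotypes and with CITCO in WT cells. It had 352 and 344 CPM in KO cells with PB, 229 and 241 in KO with CITCO, and 226 and 228 in KO with DMSO. WT cells had 512 and 483 CPM with PB, 430.1 and 437 with CITCO, and 349 and 343 with DMSO. As for UGT2B4, the KO libraries with PB overlapped the WT libraries with DMSO. PB raised UGDH by 0.62 in KO (0.53 to 0.70, adjusted p = 3.78e-09) and by 0.52 in WT cells (0.44 to 0.61, adjusted p = 4.07e-08), and CITCO raised it by 0.33 in WT cells (0.24 to 0.41, adjusted p = 6.43e-05). With CITCO in KO cells the difference was 0.05 (-0.03 to 0.13, adjusted p = 0.681). The antisense gene UGDH-AS1 overlaps UGDH by 293 bases, and strand use in the counting is not given, so reads there cannot be assigned. UGDH-AS1 had its own locus, at 35.8 to 40.1 CPM in KO and 29.2 to 32.2 in WT libraries.

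UGP2, the step before UGDH, passed in none of the 4 drug comparisons by limma. It had 184 and 184 CPM in KO cells with PB, 195 and 204 in KO with CITCO, and 196 and 216 in KO with DMSO. WT cells had 237 and 222 CPM with PB, 225 and 226 with CITCO, and 262 and 245 with DMSO. The 4 responses were all below 0, at -0.16 (PB in KO, adjusted p = 0.0547), -0.04 (CITCO in KO, 0.825), -0.14 (PB in WT, 0.0991) and -0.17 (CITCO in WT, 0.0936). The CITCO and DMSO libraries overlapped in KO cells. The PB value in KO cells passed in 7 of 20 alternative settings. They include library totals scaled alike (adjusted p = 0.0214) and a fit of the compared libraries alone (adjusted p = 0.0294). The authors' deposited table gave it an FDR of 0.143.

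The 5 genes were chosen with earlier results of these data known, so shares of all loci beside their counts are a description alone. Across the 5 genes, PB raised 3 in KO cells, where 3.87% of 15792 tested loci rose, and lowered 1, where 3.09% fell. In WT cells PB raised 3 of 5, against 2.66% of loci. CITCO raised 0 of 5 in KO cells by limma, where 0.811% of loci passed, and 2 of the 5 had an unadjusted p under 0.05. In WT cells CITCO raised 3 of 5, against 1.18% of loci. PB and CITCO responses of a genotype share its DMSO libraries. The direction of called loci depended on scaling: 55.6% of loci called for PB in KO rose under the deposited scaling and 40.4% with totals scaled alike. The corresponding shares were 47.7% and 60.7% for CITCO in KO, and 53.7% and 71.2% for CITCO in WT.

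**Figure D2:**
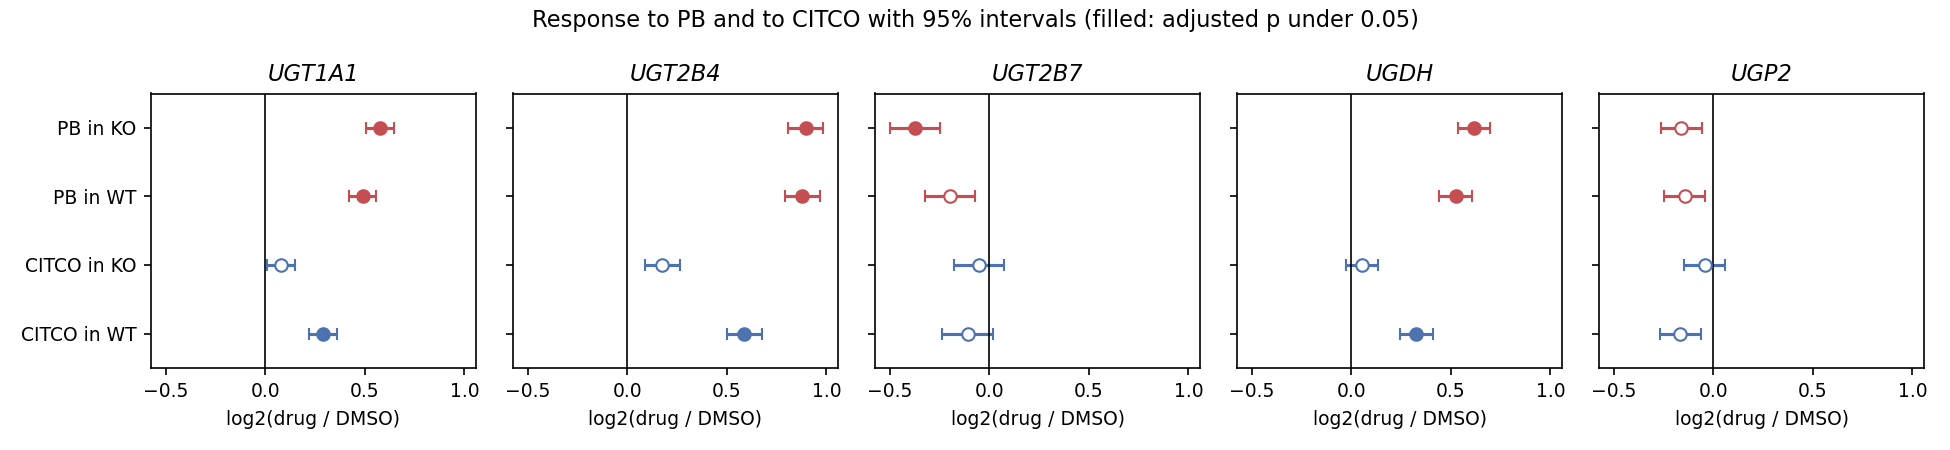
Log2 differences from DMSO for PB and CITCO, with 95% intervals, for the 5 genes in KO and WT cells. UGT1A1, UGT2B4 and UGDH rise with PB in both genotypes, and with CITCO their WT intervals lie to the right of the KO intervals.

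The responses themselves were then compared between genotypes. For PB, 0 of 5 differences passed by limma and 0 had an unadjusted p under 0.05, with 1.01% of loci passing. The difference, KO minus WT, was 0.02 for UGT2B4 (interval -0.11 to 0.14), 0.09 for UGT1A1 (-0.01 to 0.19) and 0.09 for UGDH (-0.02 to 0.21). It was -0.18 for UGT2B7 (-0.35 to 0.00) and -0.02 for UGP2 (-0.16 to 0.13). For CITCO, 2 of 5 passed as lower in KO, where 0.228% of loci did. UGT2B4 responded less in KO by 0.41 (-0.54 to -0.29, adjusted p = 0.00167) and UGDH by 0.27 (-0.39 to -0.16, adjusted p = 0.0365). The UGT1A1 difference of -0.21 did not pass (-0.31 to -0.11, adjusted p = 0.0681). With a prior variance that does not depend on expression, UGT2B4 (adjusted p = 0.191) and UGDH (0.301) no longer passed. Leaving out single libraries gave -0.47 to -0.35 for UGT2B4 and -0.31 to -0.24 for UGDH, and the UGDH call was lost in 9 of 12 such fits. Leaving out a PB library cannot change these values, because the difference of CITCO responses does not use it. It changed the shared spread and the adjustment, and the UGDH call was lost without either KO_PB replicate. In the authors' deposited table for KO_CITCO against WT_CITCO, whose values across 14161 loci followed the difference of responses (r = 0.994) and not the difference of levels (r = 0.194), UGT2B4 had -0.41 (FDR 0.00223), UGDH -0.27 (FDR 0.0653) and UGT1A1 -0.21 (FDR 0.151).

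The drugs were also set against each other, although the doses are unknown. In KO cells, PB exceeded CITCO for 3 genes, against 3.57% of loci, and was lower for 1, UGT2B7, against 1.91%. The differences were 0.72 for UGT2B4 (adjusted p = 1.46e-09), 0.56 for UGDH (1.66e-08), 0.50 for UGT1A1 (9.66e-09) and -0.32 for UGT2B7 (0.00238). In WT cells PB exceeded CITCO for 3 genes, against 2.65% of loci, by 0.29 for UGT2B4 (adjusted p = 0.000268), 0.20 for UGDH (0.00404) and 0.20 for UGT1A1 (0.00102). With the constant prior variance, UGT1A1 (0.0801) and UGDH (0.0971) did not pass in WT cells, nor UGT2B7 in KO cells (0.0757). Among called loci, those higher with PB were 65.1% in KO and 42.2% in WT under the deposited scaling, and 39.4% in KO and 20.9% in WT with totals scaled alike.

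All 5 genes were lower in KO than in WT cells under each treatment with the deposited scaling, a comparison in which 28.9% of loci were lower with PB, 29.8% with CITCO and 29.4% with DMSO. Of the loci called with DMSO, 49.0% were higher in KO under the deposited scaling and 78.2% with totals scaled alike. UGT2B7 differed most, by -1.67 with PB (adjusted p = 5.34e-14), -1.43 with CITCO (5.34e-13) and -1.49 with DMSO (3.1e-13). UGT2B4 differed by -0.94 with PB (adjusted p = 1.23e-12), -1.37 with CITCO (6.87e-15) and -0.96 with DMSO (1.03e-12). UGDH differed by -0.51 with PB (adjusted p = 2.17e-09), -0.88 with CITCO (1.19e-12) and -0.61 with DMSO (2.31e-10). Scaling all library totals alike moved the median KO-WT difference of all loci by 0.24 to 0.26. UGT2B4, UGT2B7 and UGDH stayed lower in KO under all 3 treatments, at -0.69, -1.23 and -0.34 with DMSO. UGT1A1 was lower by 0.30 in KO with DMSO under the deposited scaling, and its value of -0.04 with totals scaled alike did not pass (adjusted p = 0.289). With PB its difference was -0.21 under the deposited scaling and 0.04 with totals scaled alike (adjusted p = 0.281), while with CITCO it was -0.51 under the deposited scaling and -0.26 with totals scaled alike, and both passed. UGP2 differed by -0.32 with PB, -0.18 with CITCO and -0.30 with DMSO under the deposited scaling, and passed under no treatment with totals scaled alike, where its CITCO difference turned to 0.07. Without KO_CITCO replicate 1 the UGP2 value with CITCO was -0.15 and did not pass (adjusted p = 0.0571). In bulk RNA, fewer cells of a type and less RNA per cell cannot be told apart, and the part of the marker differences given above, which ran in both directions among the biliary genes, was not tested.

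**Figure D3:**
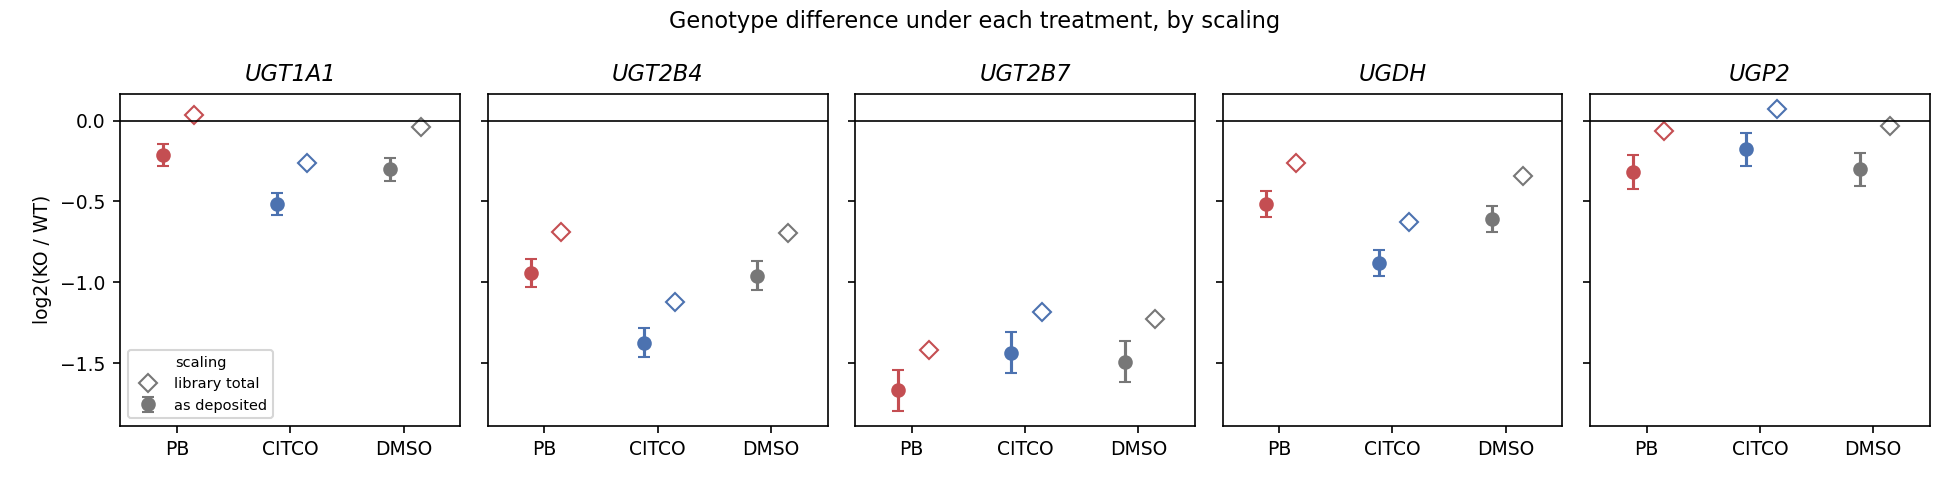
Log2 difference between KO and WT cells for the 5 genes under PB, CITCO and DMSO, with 95% intervals, under the deposited scaling and with library totals scaled alike. UGT2B7, UGT2B4 and UGDH lie below 0 under both scalings, and UGT1A1 with PB and UGP2 with CITCO change sign.

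Set beside each other within a library, where scaling cancels, the read ratios of the members differed between groups. Reads of UGT2B4 per read of UGT2B7 were 6.09 and 6.29 in KO with PB, 3.03 and 2.98 in KO with CITCO, and 2.73 and 2.40 in KO with DMSO. The same ratio was 3.70 and 3.76 in WT with PB, 2.85 and 2.89 in WT with CITCO, and 1.78 and 1.75 in WT with DMSO. UGDH reads per UGP2 read were 1.92 and 1.87 in KO with PB, 1.17 and 1.18 in KO with CITCO, and 1.15 and 1.06 in KO with DMSO, against 2.16 and 2.18 in WT with PB, 1.91 and 1.93 in WT with CITCO, and 1.33 and 1.40 in WT with DMSO. Both ratios were highest with PB in each genotype. Per kilobase of transcript, the mean level of the UGT1A1 locus was the highest of the 5 in every group, 279 CPM per kb in KO and 344 in WT with DMSO. That locus may hold reads of the other UGT1A genes, so this rank may not be that of UGT1A1 alone. UGT2B7 was at 49.4 CPM per kb in KO and 139 in WT with DMSO, below UGP2 in KO (88.1) and above it in WT (108).

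The rest of the pathway was described from lists that were chosen with earlier results of these data known. Of 11 other UGT2, UGT3 and UGT8 genes, 7 were tested. PB raised UGT2B10 by 0.34 and UGT2B17 by 0.42 in KO, and UGT2B17 by 0.25 in WT. Thus 2 of 7 rose in KO and 1 in WT, against 3.87% and 2.66% of loci. CITCO raised 0 of 7 in KO by limma, with 2 at an unadjusted p under 0.05, where 0.811% of loci passed. In WT it raised 2 of 7, UGT2B10 (0.38) and UGT2B17 (0.26), against 1.18% of loci. The WT count with CITCO was 0 without either WT_CITCO replicate and 1 without WT_DMSO replicate 1. The KO count with PB was 1 without KO_DMSO replicate 1 or either KO_PB replicate, and the WT count with PB was 3 without WT_PB replicate 2 and 2 without KO_CITCO replicate 1. With DMSO, 3 of 7 were lower in KO, against 29.4% of loci. They were UGT2A3 at 56.9 CPM in KO and 338 in WT, UGT2B10 at 19.7 and 41.2, and UGT2B17 at 94.2 and 194. UGT2B11 (0.63) and UGT3A1 (0.52) were higher in KO, 2 of 7, near the 28.3% of all loci. These 5 directions were the same with totals scaled alike. With the constant prior variance 1 of 7 passed for PB in KO and 0 for either drug in WT. UGT2B17 shares 27.5% of its 50-base windows with UGT2B15, which had no row, and UGT2B10 shares 10.6% with UGT2B11.

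Over all loci, the share called in either direction was 6.42% for PB in WT, 6.96% for PB in KO, 2.2% for CITCO in WT and 0.811% for CITCO in KO. Of 5 genes listed from glucose to UDP-glucose, 4 were tested. SLC2A2, the hepatic glucose transporter, was the 1 gene of the 4 that fell with PB in WT (-0.22), and it did not pass without WT_PB replicate 2. By limma 0 of 4 passed for PB in KO, for CITCO in KO or for CITCO in WT, with 1 at an unadjusted p under 0.05 in each, and for CITCO in WT 1 passed without either WT_PB replicate and 0 by edgeR or DESeq2. With DMSO, 2 of 4 were higher in KO, HK2, a hexokinase (1.05), and PGM2 (0.25), against 28.3% of loci. SLC2A2 (-0.91) was lower, 1 of 4 against 29.4% of loci. PGM1, a phosphoglucomutase, was at 181 CPM in KO and 190.1 in WT, a difference of -0.07 that did not pass, and was higher in KO by 0.19 with totals scaled alike. Of 4 nucleotide sugar transporters, 0 passed in any of the 4 drug comparisons by limma, with 0 or 1 at an unadjusted p under 0.05 in each, and 1 passed for PB in KO without either WT_DMSO replicate. They include SLC35D1, which carries UDP-glucuronate into the endoplasmic reticulum. All 4 were lower in KO with DMSO under the deposited scaling, against 29.4% of loci. SLC35D1 was lower by 0.20, but its value was 0.06 with totals scaled alike, where 1 of 4 passed. Of 8 genes for other uses of these sugars, GYS1, the muscle-type glycogen synthase, fell with PB in KO (-0.29) and WT (-0.31) and with CITCO in KO (-0.30). With the constant prior variance 0 of 8 passed in those comparisons, and for CITCO in KO 0 passed without KO_DMSO replicate 1 or either KO_CITCO replicate. The glycogen branching enzyme GBE1 also fell with PB in KO (-0.16), so 2 of 8 fell there, against 3.09% of loci. The PB count in KO, 2 of 8, was 0 without KO_DMSO replicate 1 or KO_PB replicate 2 and 1 without KO_DMSO replicate 2, KO_PB replicate 1 or either WT_CITCO replicate, and that in WT was 2 without WT_DMSO replicate 2. Of the 8, 6 were higher in KO with DMSO, led by GYS2 (1.36), against 28.3% of loci. With totals scaled alike 7 of the 8 were higher, and so were 8291 of 15792 loci.

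Export of glucuronides centres on ABCC2, the canalicular exporter of conjugates, and it was the single gene of the 6 tested from its list that rose in all 4 drug comparisons. Its level was 472 and 477 CPM in KO with PB, 257 and 257 in KO with CITCO, and 212 and 211 in KO with DMSO. WT libraries had 674 and 636 CPM with PB, 410.1 and 434 with CITCO, and 344 and 325 with DMSO. The log2 response to PB was 1.16 in KO and 0.97 in WT, and the response to CITCO was 0.28 in KO and 0.34 in WT. ABCG2 rose with PB in WT (0.62), and ABCC3 fell there (-0.15). With the constant prior variance no gene of the list passed for CITCO in KO, and 1 of 6 passed for PB in WT without WT_DMSO replicate 2. With DMSO, 5 of the 6 tested genes were lower in KO, against 29.4% of loci: the exporters ABCC2, ABCC3, ABCC4 and ABCG2, and SLCO1B3, an uptake carrier. The count was 4 with totals scaled alike, where ABCC4 did not pass and 2312 of 15792 loci were lower. GUSB, the cleaving enzyme, differed by -0.12 under the deposited scaling and did not pass, and was higher in KO by 0.15 with totals scaled alike. Among 8 receptors and factors tied to UGT transcription, PB raised NR1I3 (0.54 in KO, 0.36 in WT), PPARA (0.21 in KO, 0.34 in WT) and NFE2L2 (0.23 in KO, 0.28 in WT). CITCO raised NFE2L2 (0.25 in KO, 0.27 in WT). The PB count was 3 of 8 in each genotype, against 3.87% of loci in KO and 2.66% in WT. The CITCO count was 1 of 8, where 0.811% of loci passed in KO and 1.18% rose in WT. With DMSO, 6 of 8 were lower in KO and 1 was higher, against 29.4% and 28.3% of loci. With totals scaled alike 3 were lower and 2 higher, as were 2312 and 8291 of 15792 loci. The count of factors called fell to 1 for PB in KO without KO_DMSO replicate 1 or either KO_PB replicate, and to 0 for CITCO in WT without either WT_CITCO replicate. For CITCO in KO it fell to 0 without any 1 of the 8 libraries of KO or of WT with CITCO.

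**Figure D4:**
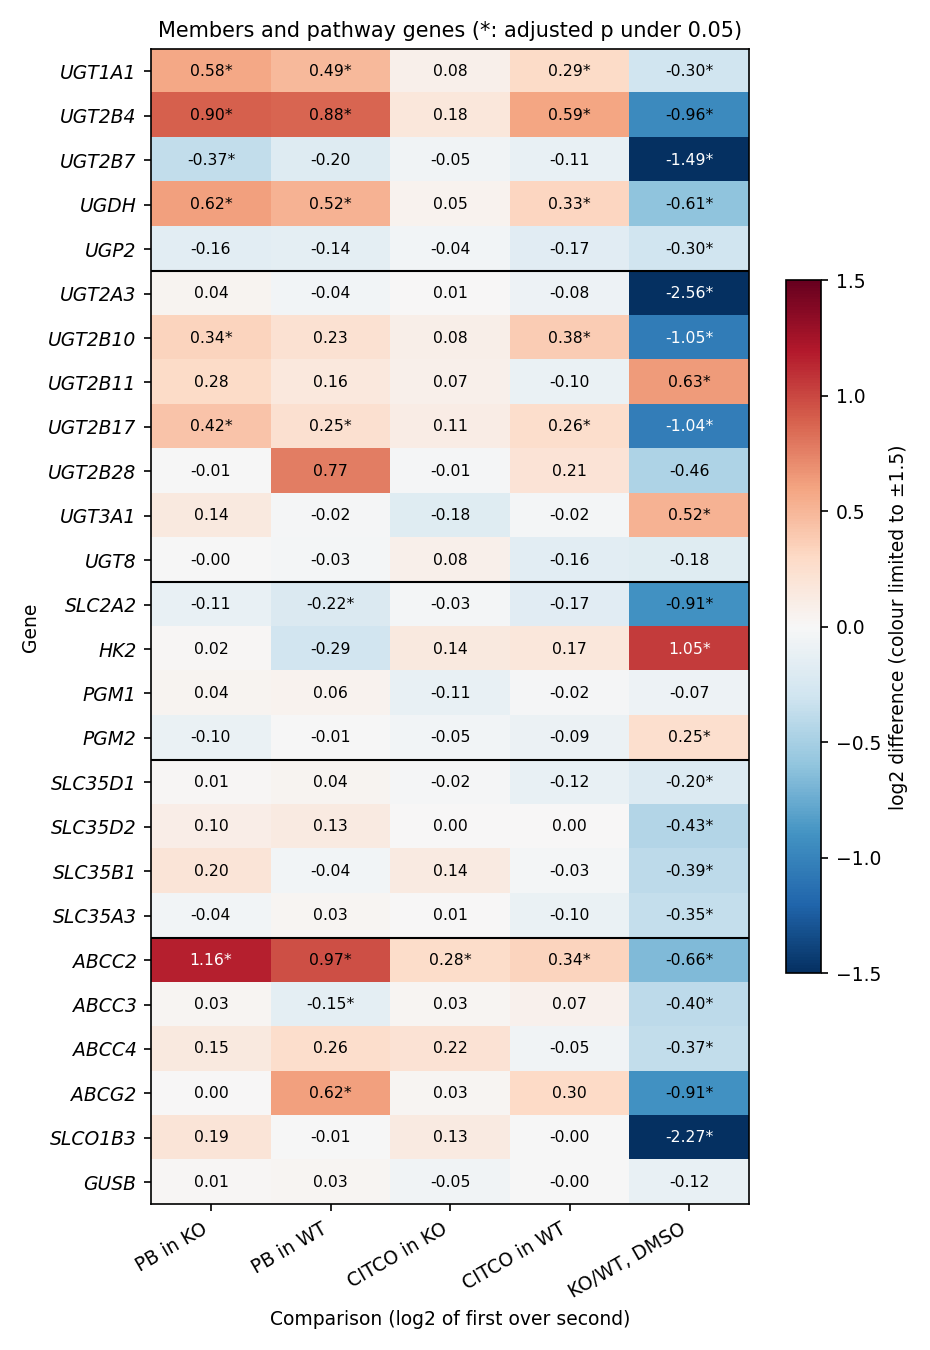
Log2 differences for the genes of the UDP-glucuronate and glucuronide pathway in each drug comparison and between KO and WT with DMSO, under the deposited scaling. ABCC2 rises in all 4 drug comparisons, and UGT2A3 shows the lowest KO-WT value of the UGT genes.

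Each gene was finally matched to the loci whose centred log2 profile over the 12 libraries lay nearest, among 11611 loci with a mean of at least 5 CPM. Distances are root mean squares on the log2 scale, given as a description without a test. UGT1A1, whose own profile varied by 0.287, had SULT2A1 (0.0477), SLC47A1 (0.0614) and RP11-1113L8.1 (0.0946) nearest. UGT2B4 (own variation 0.664) had EPHX1 (0.0997), CYP4F8 (0.111) and AKR1C1 (0.127), and UGT2B7 (0.778) had KCNJ16 (0.0567), PDZK1 (0.0880) and IL18 (0.0915). UGDH (0.417) was nearest to GLYAT (0.0575), MAT1A (0.0861) and MLYCD (0.0934). UGP2 (0.156) was nearest to KLF9 (0.0373), SERINC1 (0.0404) and GCOM1 (0.0450). Among the members, UGT1A1 and UGDH lay closest (0.166) and UGT1A1 and UGT2B7 farthest apart (0.695).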

How the data were processed

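Transcripts were measured by RNA sequencing in 12 HepaRG libraries, 2 in each of 6 groups. Column-purified RNA went into standard Illumina libraries, per the labels' protocols. The submitters' processing notes name edgeR 2.12, Cuffdiff 2.1.1 with Cufflinks 2.1.1, and TopHat2 2.0.10 with Bowtie 1.0.0, beside the builds GRCh38 and GRCh37, and give no role to any. The authors deposited 1 expression table whose values are a normalized signal, not plain CPM or counts as first planned. Every value was a whole multiple of 1 read within 0.001 reads, so counts could be recovered from the deposited signal, and edgeR's quasi-likelihood test and DESeq2 were run on the WT libraries as alternatives, while KO libraries were fitted with limma alone. They called 561 (edgeR) and 670 (DESeq2) loci for PB, and 136 and 208 for CITCO, of 15219. The authors also deposited comparison tables with log2 fold changes, a likelihood-ratio score and p-values, used only where named.

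Log2(CPM + 0.5) was taken for the 15792 of 15822 loci that reached 1 CPM in 2 or more libraries and fitted with limma 3.58.1 (R 4.3.3) on all 12 libraries and 6 groups, with a variance trend and 6 residual degrees of freedom. Two-sided p-values were adjusted by Benjamini and Hochberg over all loci, and loci under 0.05 were called. Log2 differences on this scale understate changes of low genes. Alternatives were total scaling, pseudocounts, filters, a constant prior variance, separate fits, a replicate block and leaving out each library, and the fit was tested on simulated data. Genes named were the members, control genes, the pathway lists, and the 3 nearest profiles of each member. The members and lists were chosen with earlier results of these data known, and 1 listed gene is not reported here. Levels per kb used the principal GENCODE 29 transcript.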

Additional observations from a re-analysis of the deposited data

Results flagged for a closer look

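The CITCO response differed between genotypes, KO minus WT, for UGT2B4 (-0.413 on the log2 scale, limma adjusted p = 0.00167) and for UGDH (-0.274, adjusted p = 0.0365). Over the alternatives tried, the adjusted p of UGT2B4 ran from 0.000216 to 0.191. The UGDH difference passed in 10 of 20 alternatives.

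Among the control genes, the PB response of CYP2B6 was higher in KO (difference 0.9, adjusted p = 6.65e-06) and its CITCO response lower (-2.78, adjusted p = 3.52e-13). CYP3A4 responded less in KO to PB (-0.759, adjusted p = 9.81e-08) and to CITCO (-0.554, adjusted p = 4.93e-06). Its mean level was nevertheless higher in KO with DMSO (1090 CPM, against 237 in WT). The same held with PB (10671.5 against 3928) and with CITCO (2545 against 813). CYP1A1 responded more to CITCO in KO (1.72, adjusted p = 0.0153). With DMSO it had 0.268 and 0.540 CPM in KO, near the added 0.5, and 1.58 and 0.944 in WT. With CITCO it had 16.9 and 17.3 CPM in KO and 10.2 and 9.57 in WT. The size of this difference thus depends in part on a KO baseline near the floor.

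Most cell type markers did not pass for either difference of responses, KO minus WT. For PB, 2 of 7 hepatocyte genes passed by limma, SERPINA1 (0.303) and FGB (0.228), where 1.01% of loci did. So did 1 of 4 biliary genes, SPP1 (-0.448), and 1 of 5 mesenchymal genes, DCN (0.395). For CITCO, 1 of 7 hepatocyte genes passed, FGB (0.249), where 0.336% of loci did. So did 1 of 4 biliary genes, KRT19 (-0.449), and 0 of 5 mesenchymal genes.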

How the results depend on the processing

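Of 1130 values for members under the alternatives, which include fits without a library outside the comparison, 1081 kept their side of the threshold. Of these 10 changed sign without passing: UGT2B7 and UGP2 for CITCO in KO, UGT2B4 and UGP2 for the difference of PB responses, UGT2B7 for that of CITCO responses and UGP2 for PB against CITCO in WT. Scaling library totals alike made UGT1A1 (KO minus WT with PB, 0.0377) and UGP2 (KO minus WT with CITCO, 0.0743) change sign. It also moved UGT1A1 (-0.0369) and UGP2 (-0.0355) with DMSO and UGP2 with PB (-0.0672) out of significance, leaving 3 members called with DMSO and 3 with PB. It brought in UGT2B7 for PB in WT (-0.22), UGP2 for PB in KO (-0.19), UGT2B4 for CITCO in KO (0.19, so 1 member called) and the UGT1A1 difference of CITCO responses (-0.22). A constant prior variance took out the differences of CITCO responses of UGT2B4 (-0.41) and UGDH (-0.27), leaving 0 members, and, for PB against CITCO, UGT1A1 (0.20) and UGDH (0.20) in WT, leaving 1, and UGT2B7 in KO (-0.32). Fitting only the libraries compared brought in UGP2 for PB in KO (-0.16), UGT2B4 for CITCO in KO (0.18, 1 member) and UGP2 for PB against CITCO in KO (-0.12). DESeq2 brought in UGT2B7 for PB in WT (-0.19).

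Leaving out 1 library at a time gave -0.31 to -0.24 for the UGDH difference of CITCO responses, which then passed only without WT_DMSO replicate 2 or either WT_PB replicate, and -0.24 to -0.19 for UGT1A1, which passed without either WT_PB replicate. With 1 library left in a group, it was assumed to vary like the others. Leaving out a library outside a comparison changed the shared spread and the adjustment, not the difference itself. The ranges were 0.15 to 0.24 for UGDH and PB against CITCO in WT (lost without WT_CITCO replicate 1 or WT_PB replicate 1), -0.21 to -0.15 for UGP2 between genotypes with CITCO (lost without KO_CITCO replicate 1), -0.23 to -0.0927 for UGP2 and PB in KO (passing without KO_DMSO replicate 1 or any 1 WT_DMSO or WT_PB library), -0.35 to -0.29 for UGT2B7 and PB against CITCO in KO (lost without KO_PB replicate 2), -0.21 to -0.12 for UGP2 and CITCO in WT, -0.19 to -0.10 for UGP2 and PB in WT, 0.16 to 0.19 for UGT2B4 and CITCO in KO, and -0.26 to -0.13 for UGT2B7 and PB in WT. Members called ranged from 1 to 3 for the difference of CITCO responses, 0 to 1 for CITCO in KO and 3 to 5 for PB in WT. The share of loci called for PB in WT was 6.42% by limma, against 561 (edgeR) and 670 (DESeq2) of 15219 loci. The share ran from 2.56% to 6.98% there, 0.608% to 6.28% for CITCO in WT, 3.31% to 9.96% for PB in KO, 0.127% to 1.66% for CITCO in KO, 0.158% to 1.35% for the difference of PB responses, 0.038% to 3.11% for that of CITCO responses, and, for PB against CITCO, 2.48% to 12.9% in KO and 2.39% to 7.92% in WT. Leaving out WT_DMSO replicate 2 gave the highest share in WT and for both differences of responses.

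With a replicate block the UGDH difference of CITCO responses kept -0.27 (adjusted p = 0.0496), and no call on a member changed. Same-numbered libraries deviated together (r above 0.1) in 4 of 15 pairs of groups, the labels do not say whether a number marks a batch, and a pairing was not established. Precision is limited by having 2 libraries per group.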
